A study of Mus musculus with 8 samples.

Results

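RNA sensing and the interferon response were examined through 40 named genes of the 54532 listed in the count table. They were taken by symbol: sensors of viral RNA with their adaptors and kinases (8 genes), interferon regulatory factors (IRFs) and Stat2 (7), antiviral effectors (16), the ADP-ribosylation genes Parp9, Parp14 and Dtx3l (3), and interferon-inducible GTPases with the ubiquitin-like modifier Ubd (6). Their choice used no rule on measured values, but they were listed with earlier results of these data known. The shares given below are thus not those of a list made blind to the data. All 40 symbols were found in the table. The libraries came from mouse intestinal organoids, cultures of intestinal epithelium that grow from its stem cells, 4 labelled control and 4 labelled RANKL. RANKL is the ligand of RANK, a receptor of the TNF receptor superfamily that acts through NF-κB, and the comparison asks which transcripts differ in the epithelium when the ligand is added. The labels gave no strain, genotype, dose or duration for either group. They did not say whether the replicates were separate cultures or animals, so the p-values measure the spread between these libraries only.

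Cells detect viral RNA in the cytosol with helicases such as RIG-I (Ddx58) and MDA5 (Ifih1), which signal through the mitochondrial adaptor MAVS to the kinases TBK1 and IKKε (Ikbke). These kinases activate IRF3 and IRF7, which switch on the interferon genes, and secreted interferon then acts through JAK kinases and a complex that holds STAT2 and IRF9 on a large set of interferon-stimulated genes. Intestinal epithelium is a main responder to interferon lambda, and Irf1 is a target of interferon gamma as well as of NF-κB.

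Each library was read as 3′ tag counts, where a transcript gives about the same number of tags whatever its length. Total counts ran from 583663 to 7807298 in the control libraries and from 613135 to 1923354 in the RANKL libraries. The control group held 16214577 counts in all and the RANKL group 5763309, so raw counts of the groups cannot be compared directly. Levels are given as counts-per-million values (CPM), over library totals scaled by the trimmed mean of M values (TMM). A count of 3, the most that an observed 0 allows, was worth 5.14 CPM at the lowest total and 0.384 CPM at the highest. Of 9971 genes with enough counts to test, 2587 (25.9%) passed an adjusted p of 0.05 in edgeR's quasi-likelihood test, 1355 (13.6%) higher and 1232 (12.4%) lower with RANKL. The median log2 fold change of all tested genes was 0.00.

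The 6 epithelial markers were all present and summed to 5310 to 6234 CPM in control and 5412 to 5823 CPM in RANKL libraries. Cdh1 made most of the sum, and Krt18 was lower with RANKL (583 to 706 against 369 to 418 CPM, edgeR adjusted p = 9.4e-07). None of 9 leukocyte markers had enough counts to test: Cd3e, Cd79a and Itgax were at 0 in every library, Ptprc had 0 control and 1 RANKL counts, and the list summed to 3.44 to 8.87 CPM in control and 4.13 to 16.1 CPM in RANKL libraries. None of 6 stromal markers could be tested either, and Dcn and Cdh5 were at 0. Markers of M cells, the epithelial cells that sample antigen and depend on RANKL, were 7 of 8 tested and all 7 higher, while Gp2 was at 0 in every library. Their summed level was 54.1 to 60.6 CPM in control and 1876 to 2132 CPM in RANKL libraries, of which Spib alone made 2.28 to 5.37 and 1489 to 1760 CPM. Of 5 stem cell markers Lgr5 (log2 fold change -2.22), Axin2 (-0.90) and Smoc2 (-0.76) were lower, and Ascl2 was higher (15.2 to 21.4 CPM in control and 27.4 to 41.7 CPM in RANKL libraries). Gip and Cck of 5 enteroendocrine markers and Apoa1 of 6 enterocyte markers were higher, by 0.33 to 0.39 on the log2 scale. The part of these shifts in any result given here was not tested, and in bulk samples more cells of a type and more RNA per cell cannot be told apart.

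Of the 40 genes, 24 had enough counts to test. With RANKL 7 were higher (Ddx58, Ikbke, Irf1, Irf7, Slfn2, Parp14 and Ubd), 1 was lower (Irf8), and 16 did not pass the threshold. The higher share was 29.2% against a background of 13.6%, the lower share 4.17% against 12.4%, and the share called in either direction 33.3% against 25.9%, which is not far from the background. The median log2 fold change of the 24 was 0.24. In 7 of the 24 (29.2%) the groups did not overlap, against 24.6% of all tested genes. Of the 7, 6 had all RANKL libraries above all controls (background 13.1%) and 1 had all below (background 11.5%). At an unadjusted p under 0.05 there were 12 of the 24, where 36.3% of all tested genes stood. With 4 libraries a group the exact two-sided permutation test over 70 assignments cannot go below p = 0.0286, and each gene without overlap sits at that value. The remaining 16 genes, which include most of the classical interferon-stimulated genes, held at most 40 counts each over all 8 libraries. The filter asked for 10 counts at the median library total in 4 libraries. Irf7, Slfn2 and Ubd met it through the RANKL libraries alone, so they could enter only by being higher there. Of the other 21 tested genes 4 were higher and 1 lower.

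**Figure D1:**
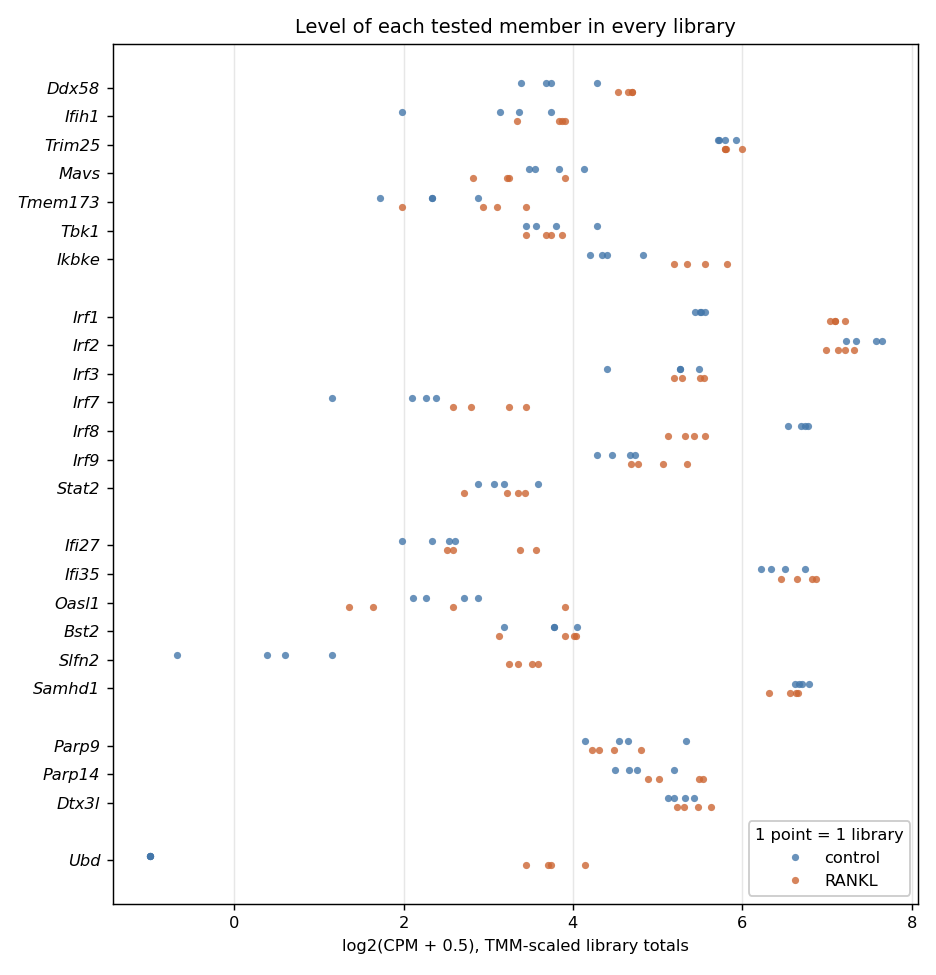
Level of each of the 24 tested genes in every library, as log2(CPM + 0.5) along the x axis, 1 point a library, blue for control and orange for RANKL, grouped by role from sensors (top) to Ubd (bottom). The 4 orange points lie right of all blue points for Ddx58, Ikbke, Irf1, Irf7, Slfn2 and Ubd, and left of them for Irf8.

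Among the sequences next to these genes, 3 promoters carry letters of the factors named above and are shown because their genes passed the threshold. The 250 bases before each RefSeq start (GRCm38.p6) were searched on both strands for the core of the interferon-stimulated response element (GAAA, any 2 bases, GAAA), the core of the interferon gamma-activated site or GAS (TTCNNNGAA), and the NF-κB consensus. Matches are in capitals, sequences run 5′ to 3′ on the gene's strand, and all 3 genes lie on the plus strand. Ubd, at chr17:37193642-37193891, held an NF-κB match 15 to 6 bases before the start. Irf1, at chr11:53769764-53770013, held a GAS match 90 to 82 bases and an NF-κB match 13 to 4 bases before the start. Irf8, at chr8:120736108-120736357, held GAS matches 171 to 163 and 153 to 145 bases before the start. Irf1 and Irf8 each have another RefSeq start, and the windows there (chr11:53770223-53770472 and chr8:120738389-120738638) held none of the 3 motifs.
Ubd: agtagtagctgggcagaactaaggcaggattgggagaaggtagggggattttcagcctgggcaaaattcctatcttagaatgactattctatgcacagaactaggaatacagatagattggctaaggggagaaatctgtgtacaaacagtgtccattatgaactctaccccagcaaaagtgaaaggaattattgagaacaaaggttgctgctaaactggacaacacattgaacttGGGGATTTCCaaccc
Irf1: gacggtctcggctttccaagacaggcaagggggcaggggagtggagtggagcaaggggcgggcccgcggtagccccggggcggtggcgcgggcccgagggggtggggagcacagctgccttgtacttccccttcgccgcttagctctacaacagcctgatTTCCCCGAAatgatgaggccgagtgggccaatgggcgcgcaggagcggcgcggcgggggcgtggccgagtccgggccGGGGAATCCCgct
Irf8: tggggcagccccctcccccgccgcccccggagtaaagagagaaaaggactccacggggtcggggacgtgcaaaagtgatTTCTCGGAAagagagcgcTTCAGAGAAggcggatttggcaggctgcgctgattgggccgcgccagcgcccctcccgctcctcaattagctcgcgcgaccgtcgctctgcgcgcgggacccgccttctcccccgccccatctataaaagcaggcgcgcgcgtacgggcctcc

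RefSeq promoters were matched for 33 of the 40 genes. These 33 had 40 promoters, and a gene was counted if any of its windows matched. The shares of all are shares of single promoters, so the units differ. The response element core stood in the windows of 13 (39.4%), against 2.98% of 32851 promoters of all genes: Bst2, Gbp2, Gbp3, Gbp7, Ifit1, Ifit3, Igtp, Irf2, Irgm1, Isg15, Oas1a, Rsad2 and Stat2. Of these 13, 3 had enough counts to test (Bst2, Irf2 and Stat2) and 0 passed the threshold, and the other 10 were among the genes with few counts. The GAS core stood in 10 windows (30.3%, against 7.02% of all), 5 of them of tested genes, with Irf1 higher and Irf8 lower. The NF-κB consensus stood in 7 windows (21.2%, against 7.25% of all), 5 of them of tested genes, with Irf1 and Ubd higher. Ubd met the filter through the RANKL libraries alone. Of all tested genes 25.9% passed the threshold, 13.6% higher and 12.4% lower. With 3 or 5 tested genes a motif, these counts cannot be set apart from those shares. The windows of Slfn2, Ikbke, Ddx58 and Irf7 held none of the 3 motifs, which says only that these letters are absent there. A match describes the letters and does not show a bound site. Oas2, Usp18, Tmem173, Parp14, Dhx58, Ifi27 and Parp9 were not matched.

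The RNA sensors and their kinases had 7 of 8 genes tested, 2 higher (28.6%, background 13.6%) and 0 lower (background 12.4%), with a median log2 fold change of 0.39. Ddx58 (GRCm38 chromosome 4, 40203773 to 40239828, minus strand), the helicase RIG-I that recognises short triphosphate-bearing RNA, stood at 9.93, 12.3, 12.9 and 18.9 CPM in control replicates 1 to 4 and 22.6, 25.5, 25.6 and 24.7 CPM in RANKL replicates 1 to 4. All RANKL libraries lay above all control libraries, of which the shallowest was the highest (log2 fold change 1.04 ± 0.21 (SE), edgeR adjusted p = 0.000269). Leaving out any library kept its log2 fold change between 0.89 and 1.11. Ikbke (chromosome 1, 131254343 to 131279606, minus strand), the inducible IKK-related kinase, stood at 19.9, 18.0, 27.9 and 20.6 CPM in control and 40.4, 46.8, 36.0 and 56.0 CPM in RANKL libraries. Its groups did not overlap either (log2 fold change 1.06 ± 0.18 (SE), edgeR adjusted p = 3.3e-05).

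Tbk1, the kinase most like Ikbke in function and present in most cells, did not pass the threshold, at 10.4 to 18.9 CPM in control and 10.4 to 14.1 CPM in RANKL libraries (log2 fold change 0.022 ± 0.24 (SE), edgeR adjusted p = 0.963, 95% interval -0.47 to 0.52). The ratio of Ikbke to Tbk1 CPM was 1.75, 1.34, 2.68 and 1.09 in control and 3.13, 3.78, 2.56 and 5.37 in RANKL libraries, so that control replicate 3 lay above RANKL replicate 3 and the groups overlapped. Ifih1, which binds long double-stranded RNA, gave 0.39 (95% interval -0.15 to 0.93, edgeR adjusted p = 0.297), with CPM of 3.44 to 12.9 in control and 9.64 to 14.5 in RANKL libraries. Trim25, a ubiquitin ligase placed upstream of RIG-I, did not pass either, at 52.2 to 60.2 CPM in control and 54.9 to 63.3 CPM in RANKL libraries (0.086, interval -0.18 to 0.35, adjusted p = 0.67).

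The adaptor genes leaned in opposite directions without passing the threshold. Mavs, the adaptor of RIG-I and MDA5, gave -0.59 (interval -1.14 to -0.032, edgeR adjusted p = 0.115) on 10.6 to 17.1 CPM in control and 6.59 to 14.5 CPM in RANKL libraries. Tmem173, which encodes STING, the adaptor of cytosolic DNA sensing, gave 0.89 ± 0.35 (SE, adjusted p = 0.0619) on 2.80 to 6.88 and 3.44 to 10.4 CPM. The 95% intervals of both leave out 0, but after adjustment over 9971 genes neither passed. Tmem173 passed without control replicate 3 (adjusted p = 0.0486) or RANKL replicate 2 (0.0282). Dhx58, the third helicase of the family, had 7 control and 3 RANKL counts in all and was not tested.

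**Figure D2:**
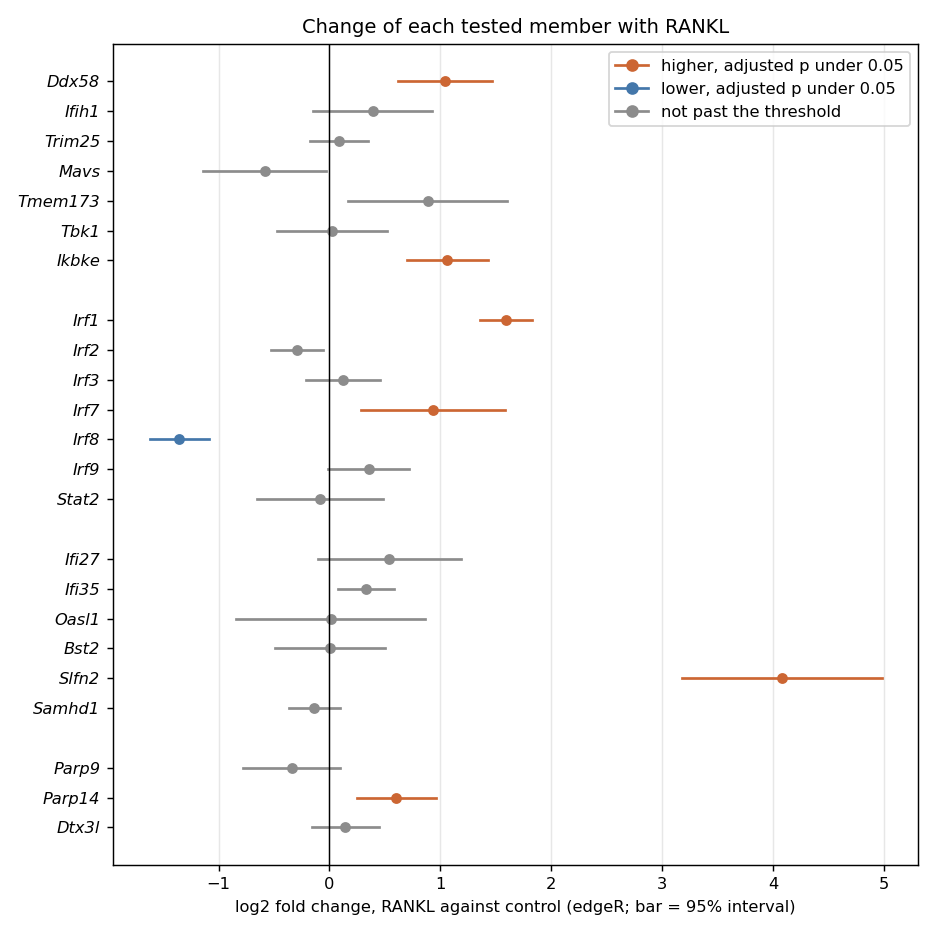
Log2 fold change of RANKL against control for 23 tested genes along the x axis, with 95% intervals from edgeR, orange for higher, blue for lower and grey for genes not past the threshold. Ubd is left out because its control libraries hold 0 counts. Slfn2 at 4.08 and Irf1 at 1.59 lie farthest right and Irf8 at -1.35 farthest left.

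The IRF and STAT factors were all tested, and the 3 that passed did not share a direction: Irf1 and Irf7 were higher and Irf8 was lower. Of the 7 genes 28.6% were thus higher (background 13.6%) and 14.3% lower (background 12.4%). Irf7 met the filter through the RANKL libraries alone. Irf1 (chromosome 11, 53770014 to 53778374, plus strand), a factor induced by interferon gamma and NF-κB that acts on antigen presentation and antiviral genes, stood at 46.6, 44.8, 45.1 and 43.0 CPM in control and 149, 136, 130.4 and 137 CPM in RANKL libraries. The mean went from 44.9 ± 1.48 to 138 ± 7.60 CPM (SD, n = 4), and the gap between the groups was many times the spread within either (log2 fold change 1.59 ± 0.11 (SE), edgeR adjusted p = 2.2e-12). Leaving out any library kept the log2 fold change at 1.57 to 1.62. Irf2, which binds the same DNA element as Irf1 and can oppose it, stood at 149, 162, 200.2 and 191 CPM in control and 159.8, 148, 139 and 127 CPM in RANKL libraries, with overlap between the groups (log2 fold change -0.29 ± 0.12 (SE), edgeR adjusted p = 0.0633). Without control replicate 1 it passed the threshold as lower. The ratio of Irf1 to Irf2 CPM was 0.313, 0.276, 0.225 and 0.225 in control and 0.929, 0.921, 0.936 and 1.08 in RANKL libraries. Irf1 thus went from well below Irf2 in every control library to about its level in every RANKL library.

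Irf8 (chromosome 8, 120736358 to 120756694, plus strand), best known as a factor of myeloid and B cell development, was the only lower gene of the 24 tested. It stood at 92.3, 109, 103 and 107 CPM in control and 46.8, 42.7, 34.4 and 39.5 CPM in RANKL libraries. The mean went from 103 ± 7.36 to 40.9 ± 5.23 CPM (SD, n = 4), the groups were far apart (log2 fold change -1.35 ± 0.13 (SE), edgeR adjusted p = 1.9e-09), and leaving out any library kept the log2 fold change at -1.41 to -1.27. The leukocyte markers given above, Cd79a and Itgax at 0 among them, held 118 control and 57 RANKL counts together, of which Csf1r, a receptor of macrophages, held 93 and 30. Irf8 itself held 1599 control and 229 RANKL counts. The ratio of Irf8 to Irf1 CPM fell from between 1.98 and 2.48 in control libraries to between 0.264 and 0.315 in RANKL libraries.

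Irf7, the factor that amplifies the interferon response, was scarce (chromosome 7, 141262706 to 141266481, minus strand). It stood at 4.71, 4.29, 3.80 and 1.72 CPM in control and 6.46, 8.95, 10.4 and 5.49 CPM in RANKL libraries, from 69 control and 47 RANKL counts. The groups did not overlap (log2 fold change 0.93 ± 0.32 (SE), edgeR adjusted p = 0.0284), but the call was lost without control replicate 3, RANKL replicate 2 or RANKL replicate 3 (adjusted p = 0.0529, 0.0902 and 0.185) and in DESeq2 (adjusted p = 0.0967). Irf3, its constitutive partner, stood at 20.6 to 44.4 CPM in control and 36.2 to 46.4 CPM in RANKL libraries (0.12, interval -0.21 to 0.46, edgeR adjusted p = 0.626). The genes of the interferon-activated complex listed here did not pass: Irf9 gave 0.36 (interval -0.010 to 0.72, adjusted p = 0.149) and Stat2 gave -0.086 (interval -0.66 to 0.48, adjusted p = 0.855). The exons of Irf9 overlap those of Rnf31 on the same strand, so its count is uncertain.

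**Figure D3:**
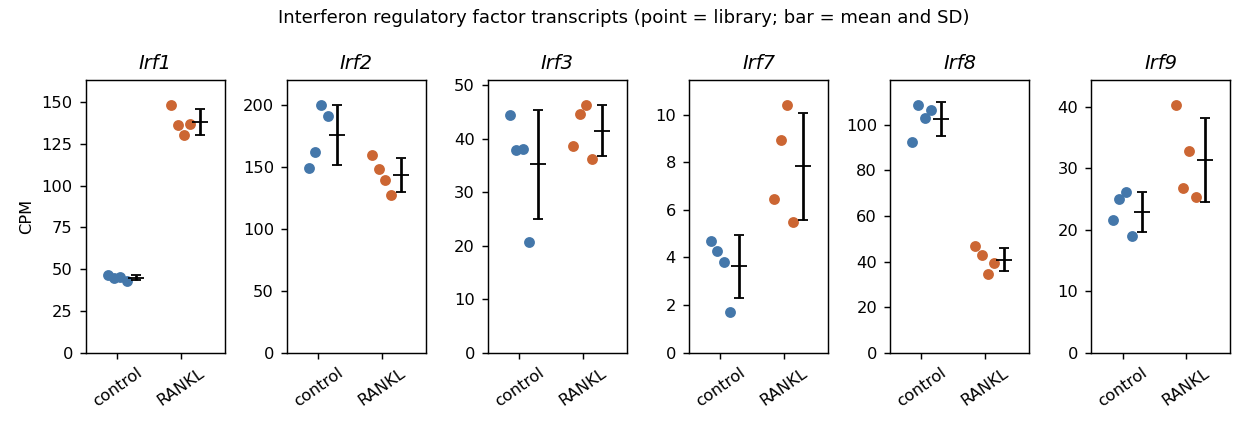
CPM of the 6 interferon regulatory factor genes, control (blue) and RANKL (orange), 1 point a library, with the mean and SD as bars and each y axis starting at 0. Irf1 moved from 44.9 ± 1.48 to 138 ± 7.60 CPM and Irf8 from 103 ± 7.36 to 40.9 ± 5.23 CPM, while the points of Irf2, Irf3 and Irf9 overlap between the groups.

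Only 6 of the 16 antiviral effectors could be tested, with 1 higher (16.7%, background 13.6%) and 0 lower (background 12.4%). The 1 that passed met the filter through the RANKL libraries alone. Slfn2 (chromosome 11, 83065112 to 83070678, plus strand), a Schlafen gene known for keeping T cells quiescent, had 1, 3, 4 and 1 counts in control and 6, 13, 21 and 21 counts in RANKL replicates 1 to 4. In CPM this was 0.127, 0.805, 1.01 and 1.72 in control and 9.69, 8.95, 11.0 and 11.5 in RANKL libraries. RANKL libraries stood within a narrow band far above all controls (log2 fold change 4.08 ± 0.44 (SE), edgeR adjusted p = 1.5e-08, range without any one library 3.34 to 4.49). Slfn2 has close relatives beside it in the genome, and how reads that fit several genes were counted is not given in the sources used here.

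The other 5 tested effectors did not pass. Bst2, tetherin, which holds budding virus at the cell surface, gave 0.0031 (interval -0.49 to 0.50, edgeR adjusted p = 0.995), with 8.60 to 16.1 CPM in control and 8.26 to 15.9 CPM in RANKL libraries. Oasl1, an inhibitor of Irf7 translation in mice, gave 0.013 (interval -0.84 to 0.86, adjusted p = 0.988), and its RANKL libraries spread from 2.06 to 14.5 CPM. Samhd1, which breaks down deoxynucleotides, was among the most abundant of the 40 at 98.0 to 110.2 CPM in control and 79.1 to 101 CPM in RANKL libraries (-0.14, interval -0.37 to 0.096, adjusted p = 0.415). Ifi35 came closest to the threshold, at 73.8 to 107 CPM in control and 87.2 to 117 CPM in RANKL libraries (0.33, interval 0.074 to 0.58, adjusted p = 0.0508). Ifi27, a mitochondrial interferon-stimulated gene, gave 0.54 (interval -0.11 to 1.19, adjusted p = 0.223).

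The remaining 10 effectors stood at or near the floor in both groups: Isg15, Usp18, Isg20, Ifit1, Ifit2, Ifit3, Ifi44, Oas1a, Oas2 and Rsad2. Together they held 94 control and 36 RANKL counts. Their summed level was 5.98, 8.32, 2.79 and 8.60 CPM in control and 1.61, 6.19, 5.22 and 8.79 CPM in RANKL libraries, so the groups overlapped over their whole range. Isg15, the ubiquitin-like modifier that is among the strongest interferon targets, had 22 control and 18 RANKL counts (pooled 1.37 and 3.10 CPM, ratio 2.27, 95% counting interval 1.15 to 4.43). Ifit1, which binds foreign capped RNA, had 16 control and 4 RANKL counts (ratio 0.693, 95% counting interval 0.169 to 2.15). Rsad2, viperin, had 18 control and 4 RANKL counts (ratio 0.616, 95% counting interval 0.152 to 1.87). RANKL replicate 4 held 10 of the 18 RANKL counts of Isg15, and for all 3 genes the libraries of the groups overlapped. These intervals cover counting error over pooled libraries only and not the spread between libraries.

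The others were thinner still. Isg20, an exonuclease, had 18 control and 6 RANKL counts, and Usp18, which removes ISG15 from proteins and restrains the interferon receptor, had 6 control and 1 RANKL counts. Ifit2 had 6 control and 0 RANKL counts, Ifit3 had 3 control and 2 RANKL counts and Ifi44 had 3 control and 0 RANKL counts. Of the oligoadenylate synthetases that activate RNase L, Oas1a had 2 control and 1 RANKL counts and Oas2 had 0 in every library. For these genes a change with RANKL was not detectable at this depth. Ifit and Oas genes belong to gene families, and the counts of members that are alike in sequence are uncertain for that reason too.

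Of the 3 ADP-ribosylation genes, all tested, Parp14 was higher (33.3%, background 13.6%) and the others did not pass. Parp14 (chromosome 16, 35832874 to 35871544, minus strand), a macrodomain mono-ADP-ribosyltransferase, stood at 24.8, 22.0, 26.6 and 36.1 CPM in control and 29.1, 46.1, 31.8 and 44.5 CPM in RANKL libraries. The groups overlapped (log2 fold change 0.60 ± 0.18 (SE), edgeR adjusted p = 0.0107, exact two-sided permutation p = 0.143, n = 4 a group), and the call was lost without RANKL replicate 2 or RANKL replicate 4 (adjusted p = 0.0679 and 0.0728). Its exons overlap those of Gm49730 on the same strand, so its count is uncertain. Parp9 and Dtx3l, whose proteins form a complex, gave -0.34 (interval -0.78 to 0.099, adjusted p = 0.264) and 0.14 (interval -0.16 to 0.45, adjusted p = 0.524).

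Ubd (chromosome 17, 37193892 to 37196095, plus strand), also called FAT10, a ubiquitin-like modifier that marks proteins for the proteasome and is induced by TNF and interferon gamma, was the gene with the sharpest contrast. It had 0 counts in each of the 4 control libraries and 8, 25, 24 and 19 counts in RANKL replicates 1 to 4. In CPM the RANKL libraries stood at 12.9, 17.2, 12.5 and 10.4. With the 3 counts that 0 allows taken as the control level, its pooled RANKL level was 70.2-fold higher. That ratio leaves out the counting error of the 76 RANKL counts, so it is not a strict lower limit. The edgeR adjusted p was 5.0e-11. The interferon-inducible GTPases listed with it were near the floor. Irgm1 had 15, 10, 8 and 0 counts in control and 0, 0, 1 and 6 in RANKL replicates 1 to 4, so RANKL replicate 4 held 6 of the 7 RANKL counts. Gbp7 had 5 control and 3 RANKL counts, Gbp3 had 2 control and 4 RANKL counts, Gbp2 had 2 control and 0 RANKL counts and Igtp had 3 control and 1 RANKL counts. Guanylate-binding proteins are near-identical in part, and the exons of Gbp7 and Igtp overlap those of Gm43802 and Irgm2 on the same strand.

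Over all 16 genes not tested the sum was 146 control and 54 RANKL counts, at 8.53, 13.7, 5.07 and 13.8 CPM in control and 8.07, 6.19, 7.30 and 14.3 CPM in RANKL libraries. The sums overlapped, and the highest library of each group was at nearly the same level. Fitted without a filter on low counts, 15 of the 16 gave a value and 0 passed the threshold in edgeR's quasi-likelihood test, with 0 at an unadjusted p under 0.05 and a smallest adjusted p of 0.294. In the same fit 10.8% of all genes passed. DESeq2 was not run on genes under the filter.

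**Figure D4:**
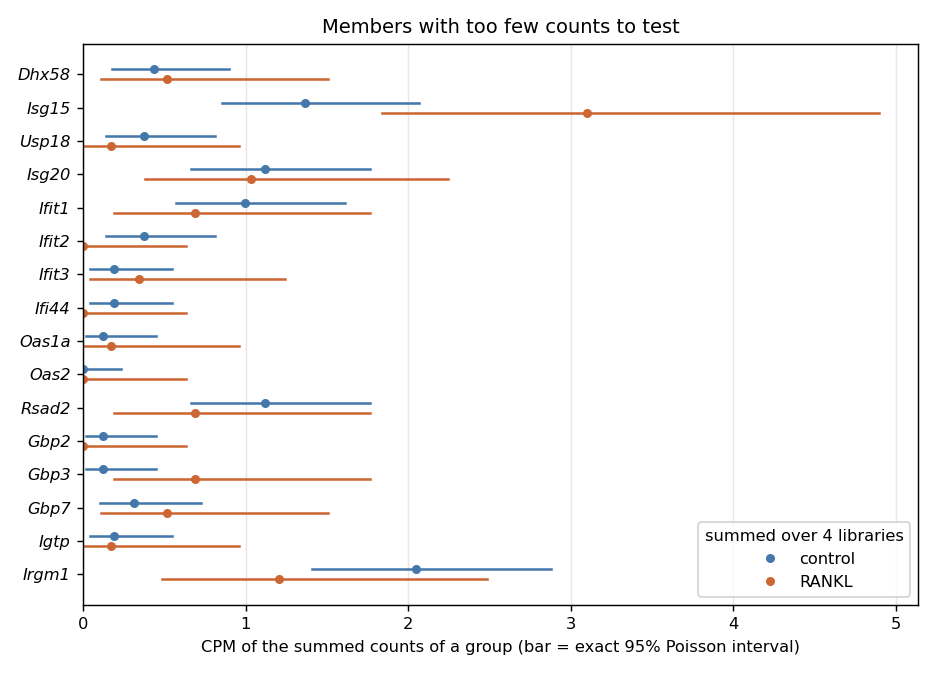
The 16 genes with too few counts to test, as CPM of the counts summed over the 4 libraries of a group along the x axis, blue for control and orange for RANKL, with exact 95% Poisson intervals that cover counting error only. The points lie at or under 3.10 CPM, the RANKL value of Isg15.

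The genes around these in the pathway were counted from lists made with earlier results known. Of 97 further genes 41 were tested, 20 higher (48.8%, against 13.6% of all) and 3 lower (7.32%, against 12.4%), with a median log2 fold change of 0.39. The 20 include Socs1, Ifnar2 and Psmb9, which would not have met the filter on the control libraries alone. All 9 interferon genes looked at had 0 counts in every library: Ifnb1, Ifna1, Ifna2, Ifna4, Ifne, Ifnk, Ifnl2, Ifnl3 and Ifng. Transcripts of these 9 genes were not detectable at this depth with or without RANKL.

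The receptors and their JAK signalling genes had 7 of 10 tested higher (background 13.6%) and 0 lower (background 12.4%), with a median log2 fold change of 0.55. The 7 include Socs1, which met the filter through the RANKL libraries alone, and Jak1, whose call was lost in 8 alternatives. Ifnar2, also among the 7, met the filter in 4 RANKL libraries and 1 control library. Control libraries alone would not have brought it in. Ifnar2, a chain of the type I interferon receptor, stood at 4.84, 2.68, 6.08 and 3.44 CPM in control and 9.69, 21.3, 17.7 and 13.7 CPM in RANKL libraries, without overlap (log2 fold change 1.84 ± 0.29 (SE), edgeR adjusted p = 1.1e-05). Its exons overlap those of Gm21970 on the same strand. Its partner Ifnar1 gave 0.55 (adjusted p = 0.0524) and passed under 4 alternatives (adjusted p of 0.00786 to 0.041). Of the interferon gamma receptor, Ifngr1 went from 459.5 ± 39.97 to 674 ± 87.5 CPM (SD, n = 4, log2 fold change 0.55 ± 0.10 (SE), edgeR adjusted p = 0.000135) and Ifngr2 gave 0.78 (adjusted p = 0.000298). Of the interferon lambda receptor, Il10rb, whose exons also overlap those of Gm21970, gave 0.21 (adjusted p = 0.353), and Ifnlr1 had too few counts to test, 84 control and 12 RANKL counts (pooled ratio 0.396, 95% counting interval 0.197 to 0.729). Its libraries overlapped, with RANKL replicate 1 at 6.46 CPM above every control, and the fit without a filter gave an edgeR adjusted p of 0.0572.

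Among the kinases, Jak2 gave 0.58 (edgeR adjusted p = 0.00518), Tyk2 0.53 (adjusted p = 0.01) and Jak1 0.32 (adjusted p = 0.0497). The call of Tyk2 was lost without RANKL replicate 2. Socs1, the feedback inhibitor of the JAKs, stood at 2.29, 0.805, 2.53 and 0 CPM in control and 27.4, 25.5, 14.1 and 23.6 CPM in RANKL libraries. Every RANKL library was far above every control (log2 fold change 3.50 ± 0.33 (SE), edgeR adjusted p = 9.7e-10). Socs3 had 62 control and 25 RANKL counts and was not tested.

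In the sensing machinery outside the 40, 4 of 10 tested genes were higher (background 13.6%) and 0 lower. Rnf135, the ubiquitin ligase Riplet that acts on RIG-I, gave 1.20 (adjusted p = 8.2e-05), Tlr3, the endosomal sensor of double-stranded RNA, 1.18 (7.7e-05), Traf3, which links MAVS to TBK1, 1.06 (2.0e-06), and Tank, which binds TRAF3 and the kinases, 0.97 (0.000113). With Ddx58 and Ikbke, genes at several levels of RNA sensing were higher, while Tbk1, Trim25, Mavs and Ifih1 did not pass.

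Other interferon-stimulated genes showed no common direction. Of 50 looked at 13 were tested, 3 higher and 3 lower (backgrounds 13.6% and 12.4%), with a median log2 fold change of -0.078. Nmi, a partner of IFI35, gave 0.97 (adjusted p = 0.000159), Parp10 0.61 (0.0142) and Shisa5 0.33 (0.0232). The groups of Nmi overlapped, with control replicate 4 at 36.1 CPM above RANKL replicate 1 at 33.9 CPM. The call of Parp10, whose exons overlap those of Plec, was lost without control replicate 1 or RANKL replicate 2, and that of Shisa5 without control replicate 1, RANKL replicate 3, RANKL replicate 4 or a filter. Slfn9, a relative of Slfn2, gave -0.80 (0.00342), Ifi27l2b, a relative of Ifi27, -0.75 (3.9e-05), and Ifitm2, which blocks viral entry, -0.73 (0.00269). The exons of Ifitm2 overlap those of Gm45717. Slfn2 and Slfn9 thus moved in opposite directions.

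Genes of antigen presentation by MHC class I, several of them known targets of Irf1, were 6 of 8 tested higher and 0 lower (75.0% higher against a background of 13.6%), with a median log2 fold change of 0.61. Psmb9, a subunit of the immunoproteasome, gave 1.59 (adjusted p = 0.00299), the peptide-loading factor Tapbp 0.90 (2.4e-06), the heavy chain H2-D1 0.70 (9.3e-06), the light chain B2m 0.49 (0.00101) and the immunoproteasome subunit Psmb10 0.41 (0.00533). Psmb9 rested on 43 control and 47 RANKL counts and met the filter in 4 RANKL libraries and 1 control library. Its groups overlapped, with control replicate 4 at 8.60 CPM above RANKL replicates 2 and 4 at 5.51 and 6.59 CPM. Class I heavy chain genes are near-identical, and the count of H2-D1 is uncertain for that reason. The exons of Tapbp overlap those of Zbtb22. The list held 11 genes, of which 3 had too few counts to test.

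**Figure D5:**
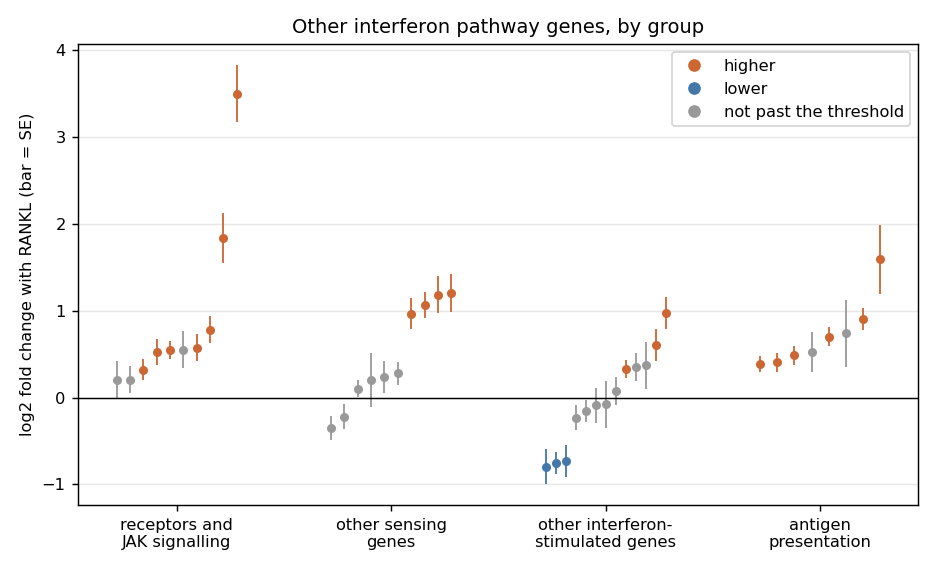
Log2 fold change with RANKL (y axis, bar = SE from edgeR) of the 41 tested pathway genes outside the 40, in 4 groups along the x axis, orange for higher, blue for lower and grey for genes not past the threshold. Higher genes are 7 of 10 among receptors and JAK signalling genes with Socs1 at the top, 4 of 10 among other sensing genes, 3 of 13 among other interferon-stimulated genes and 6 of 8 in antigen presentation.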

How the data were processed

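RNA was measured in 8 libraries (4 control, 4 RANKL) by QuantSeq 3′ mRNA sequencing. The authors trimmed reads with BBDuk, removed abundant sequences with bowtie2, aligned to GRCm38 with STAR and counted reads on Ensembl genes with strand-specific featureCounts. The deposited values are raw counts per gene, not normalized. How reads matching several genes were treated is not given in the sources used here. Column names were matched to sample descriptions. Gene symbols and positions came from the GENCODE annotation of GRCm38, and promoters from RefSeq.

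Genes with enough counts (edgeR's filterByExpr) were tested with edgeR 4.0.16 in R 4.3.3, using TMM factors, all 8 libraries, treatment as the only term, the quasi-likelihood test and Benjamini-Hochberg adjustment over 9971 genes. The study used DESeq2, which served as an alternative (version 1.42.0), beside limma-voom (limma 3.58.1), other scaling, filters and thresholds, a replicate block and each library left out. Leaving out the shallowest library of each group was chosen after totals were seen. On simulated counts over 9835 genes the fit found 103 of 103 changes of 4 times and 81 of 92 changes of 2 times with 15 false calls. CPM use TMM-scaled totals, and errors are SDs over 4 libraries unless given as SE. Intervals are 95%, and those of counts cover counting error only. Library totals were 583663 to 7807298, so precision is lowest in control replicate 4 and RANKL replicate 1. The 40 genes and all gene lists were chosen with earlier results of these data known. Values per library are given for listed genes past the threshold. Of the other pathway genes, all interferon, receptor and JAK signalling genes are named except 1 that is counted but not reported here, and in other lists up to 5 past the threshold by size of change, with Shisa5 added as the last of the 3 that were higher in its list.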

Additional observations from a re-analysis of the deposited data

Results flagged for a closer look

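In 2 of 95 groups of 4 libraries examined, those of the 24 tested genes of the 40 and of 24 pathway genes outside them, a library stood apart from the other 3 by Dixon's criterion, where chance alone gives about 1 in 20 groups, here 4.75. Both were RANKL replicate 2. Its Ifih1 level was 9.64 CPM, below the other RANKL libraries at 13.7 to 14.5 CPM. Its Trim25 level was 63.3 CPM, above the others at 54.9 to 55.5 CPM. Neither gene passed the threshold.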

How the results depend on the processing

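Of the 2587 genes past the threshold over the whole table, 1636 remained at an adjusted p of 0.01 and 577 with a fold of at least 2, and leaving out each library gave 1853 to 2601. The higher listed genes numbered 5 to 8 and the lower 1 to 2 (2 without control replicate 1, with Irf2 added) under all alternatives run. The pathway genes outside the 40 went from 20 higher and 3 lower of 41 tested to 6 and 0 with a fold of at least 2. Their lower count was 5 without the shallowest library of each group and 3 to 5 with each library left out (5 without control replicate 4), and their higher count 17 to 23. Ubd, Slfn2, Irf1, Irf8, Ikbke and Ddx58 kept direction and call under all alternatives that tested them. Irf7 and Parp14 did not, and the cause was not tested. Irf7 missed the threshold without a filter (adjusted p = 0.092) and without the shallowest libraries (0.0525). Ifi35 passed under 7 alternatives (adjusted p of 0.0160 to 0.0398), Ifnar1 under 4 and Tmem173 under 2.

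Same-numbered libraries were not treated as pairs, because the labels do not mark any. Their deviations correlated at -0.03 to 0.10, and 2 of 4 control and 1 of 4 RANKL libraries correlated best with their own number. With counting error in totals as low as 583663, these values cannot tell whether the libraries were paired. A replicate block gave 2610 genes, 13.7% of all tested genes higher and 12.5% lower. It gave 7 higher and 1 lower of the 24 tested among the 40. Of the 41 tested pathway genes it gave 19 and 3, with Jak1 at an edgeR adjusted p of 0.0533.

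Genes near 0 changed sign. Tbk1 (0.022) gave -0.0013 in DESeq2, -0.020 without a filter and -0.071 to 0.12 with each library left out. Stat2 (-0.086) gave -0.20 to 0.083 with each library left out. Oasl1 (0.013) gave -0.15 in limma-voom, -0.030 without a filter, -0.071 with the replicate block, -0.41 without the shallowest libraries and -0.45 to 0.30 with each library left out. Bst2 (0.0031) gave -0.010 in limma-voom, -0.041 without a filter, -0.016 with the replicate block, -0.053 without the shallowest libraries and -0.10 to 0.19 with each library left out. Depth limits the genes under the filter: in the control library of 583663 counts, a gene observed at 0 may stand at up to 5.14 CPM.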

Other observations

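Beside the genes the main test reached, 56 pathway genes outside the 40 had too few counts, 24 of them with 0 in every library. The fit without a filter gave a value for the other 32, and 2 passed the threshold, both higher, where 10.8% of all genes passed in either direction. They were chosen after their values were seen. Cxcl10, a chemokine that attracts T cells and is induced by interferon gamma and NF-κB, had 0, 1, 0 and 0 counts in control and 7, 8, 9 and 15 counts in RANKL replicates 1 to 4 (pooled ratio 108, 95% counting interval 18.3 to 4379, edgeR adjusted p = 1.4e-12 without a filter). Irf5, a factor of inflammatory cytokine genes, had 9, 4, 2 and 1 counts in control and 3, 8, 12 and 18 counts in RANKL libraries (pooled ratio 7.10, 95% counting interval 3.90 to 13.6, edgeR adjusted p = 1.6e-06 without a filter).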
